A study of Oryza sativa with 12 samples.

Results

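Strigolactones (SLs) are carotenoid-derived hormones that plants make mainly in roots, and the genes described here are those that encode the known steps of their biosynthesis in rice together with all members of the MAX1 family. They are D27, D17, D10, and the 5 homologs of the Arabidopsis cytochrome P450 gene MAX1, listed by their gene identifiers. No measured value entered the rule, but the list was made with earlier results of these data known. These 8 genes are all among the 41620 genes of the expression table, and 7 of them also have rows in both tables of read counts, which share 30742 genes. The libraries were made from total RNA of 3-wk-old roots of rice cultivar Nipponbare grown in hydroponic culture, with the last 2 wk at the Pi supply under study. The 4 groups were Os1400 at low-Pi (0.004 mM phosphate), WT at low-Pi, Os1400 at normal phosphate (+Pi, 0.4 mM), and WT at +Pi, with 3 libraries each. Os1400 is the CRISPR/Cas9 line 12SIII, a biallelic homozygous mutant in which Os01g0701400 (OsMAX1-1400) was disrupted in the Nipponbare background, so the genotype was represented by 1 line. The study calls its transcriptome samples biological replicates, and neither it nor the labels say which plants or cultures went into each library, so p-values measure the spread between these libraries.

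In the pathway, the carotenoid isomerase D27 acts on beta-carotene in the plastid. The carotenoid cleavage dioxygenases D17 (CCD7) and D10 (CCD8) then turn its product into carlactone, the precursor of all SLs. Cytochrome P450 enzymes of the MAX1 type oxidize carlactone further. In rice, the enzyme encoded by Os01g0700900 (Os900) forms the canonical SL 4-deoxyorobanchol, and the enzyme disrupted in Os1400 hydroxylates it to orobanchol. Rice roots are known to raise SL production when phosphate is scarce, and the released SLs attract mycorrhizal fungi. SLs that stay in the plant restrain tillering through the receptor D14, the F-box protein D3, and the repressor D53. The study concludes that canonical SLs do not have this role in rice.

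Total counts lay between 28271749 and 41078078 per library, so that 3 counts corresponded to 0.0730 to 0.106 CPM (counts scaled to the library total). The WT low-Pi libraries stood apart, with 17711 to 22077 genes holding at least 1 count, against 27191 to 30375 genes in the other 9 libraries. Over the 15459 genes with a value above 0 in all 12 libraries and a mean of at least 1 FPKM (the fragments of a gene relative to its length and to the library), the median within-group SD of log2 FPKM was 0.22 in Os1400 low-Pi, 0.57 in WT low-Pi, 0.17 in Os1400 +Pi, and 0.19 in WT +Pi. The root genes RCc3 (Os02g0662000), Lsi1 (Os02g0745100), and Lsi2 (Os03g0107300) together had 2195 to 3572 FPKM in Os1400 low-Pi, 2041 to 8057 FPKM in WT low-Pi, 3484 to 3631 FPKM in Os1400 +Pi, and 3846 to 4305 FPKM in WT +Pi, but they did not move together. RCc3 was higher in Os1400 at low-Pi (1892 to 2889 FPKM) than in Os1400 at +Pi (870 to 1359 FPKM). The silicon transporter genes Lsi1 and Lsi2 were lower, with 180 to 500 FPKM (Lsi1) and 123 to 333 FPKM (Lsi2) in Os1400 at low-Pi, against 1200 to 1420 FPKM (Lsi1) and 1030 to 1199 FPKM (Lsi2) in Os1400 at +Pi. At low-Pi, the values of Lsi1 in Os1400 also lay below all those in WT (507 to 4395 FPKM). The part of these differences in the values of the members was not tested. The summed FPKM of 6 leaf genes (Rubisco small subunits and light-harvesting proteins) stayed between 2.18 and 14.5 across all libraries. Fewer cells of a type and less RNA per cell cannot be told apart in these whole-root samples.

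The disrupted gene itself was listed at 0 FPKM in all 12 libraries, WT included, and has no row in either count table, so the labels of the mutant libraries could not be checked on it. Os01g0701400 lies on the plus strand of chromosome 1 from 29039948 to 29041364 (the tables give no genome build), and its whole span is covered by a longer gene model on the minus strand, Os01g0701350, from 29036414 to 29041387. Such overlap was common in the family. All 5 MAX1 homologs, and 6 of the 8 genes, overlapped a gene model on the opposite strand, compared with 26.3% of the 35667 RAP-DB genes in the table, while D17 and D10 did not. Whether the counting used strand, and how fragments shared by overlapping models were counted, is not given in the sources used here.

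The first comparison asked how the pathway responded to phosphate within Os1400. All 4 genes that lead from beta-carotene to 4-deoxyorobanchol rose at low-Pi, and neither OsMAX1-1900 nor OsMAX1-5100 passed the test. By the quasi-likelihood test of edgeR, with p-values adjusted over 27647 genes by the Benjamini-Hochberg method, 4 of the 6 members tested were called higher and 0 lower, where 15.6% of all genes tested were called higher and 29.6% were called in either direction. The median log2 fold change (log2FC) of the 6 members was 1.88, beside -0.0028 over all genes tested.

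D27 (Os11g0587000, plus strand of chromosome 11, 22221628 to 22231042) had 3.52, 2.38, and 2.41 FPKM in Os1400 at low-Pi, against 0.980, 1.18, and 0.790 FPKM in Os1400 at +Pi. All low-Pi values lay above all +Pi values, and the log2FC was 1.60 (SE 0.28, 95% confidence interval 0.96 to 2.23, adjusted p = 0.00227). The D27 row carries the domain description of a pentatricopeptide repeat protein, and a gene model with no fragments in any library, Os11g0587100, lies within its span on the opposite strand. How much of the D27 count comes from sequence of the isomerase was not tested.

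D17 (Os04g0550600, plus strand of chromosome 4, 27567824 to 27570449) had 5.21, 5.31, and 4.61 FPKM in Os1400 at low-Pi, against 1.27, 1.37, and 1.01 FPKM in Os1400 at +Pi. The replicates were close together in both groups, with SDs of log2 FPKM of 0.11 at low-Pi and 0.23 at +Pi. Its log2FC was 2.16 (SE 0.26, 95% confidence interval 1.58 to 2.73, adjusted p = 0.000252).

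D10 (Os01g0746400, minus strand of chromosome 1, 31225458 to 31228566) had 17.9, 7.93, and 11.9 FPKM in Os1400 at low-Pi, against 0.195, 1.79, and 0.651 FPKM in Os1400 at +Pi. The groups did not overlap, but the +Pi replicates were spread widely, over 12, 129, and 46 counts. D10 had the highest fitted log2FC of the members, 3.93 (SE 0.63, 95% confidence interval 2.53 to 5.33, adjusted p = 0.00128), and it was 4.97 without Os1400 +Pi replicate 2.

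Os900 (Os01g0700900, plus strand of chromosome 1, 29020797 to 29025975) had 8.27, 3.59, and 4.52 FPKM in Os1400 at low-Pi, against 0.288, 0.650, and 0.50 FPKM in Os1400 at +Pi. The lowest low-Pi library was therefore several times above the highest +Pi library. The log2FC was 3.60 (SE 0.44, 95% confidence interval 2.62 to 4.58, adjusted p = 0.000273). None of the 4 genes overlapped between low-Pi and +Pi in Os1400, as held with higher values at low-Pi for 22.8% of all genes tested. The calls of all 4 genes were kept without any single library, and in the fit of all 12 libraries, where the WT low-Pi spread enters, those of D27 and D10 were lost (adjusted p = 0.188 and 0.141).

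**Figure D1:**
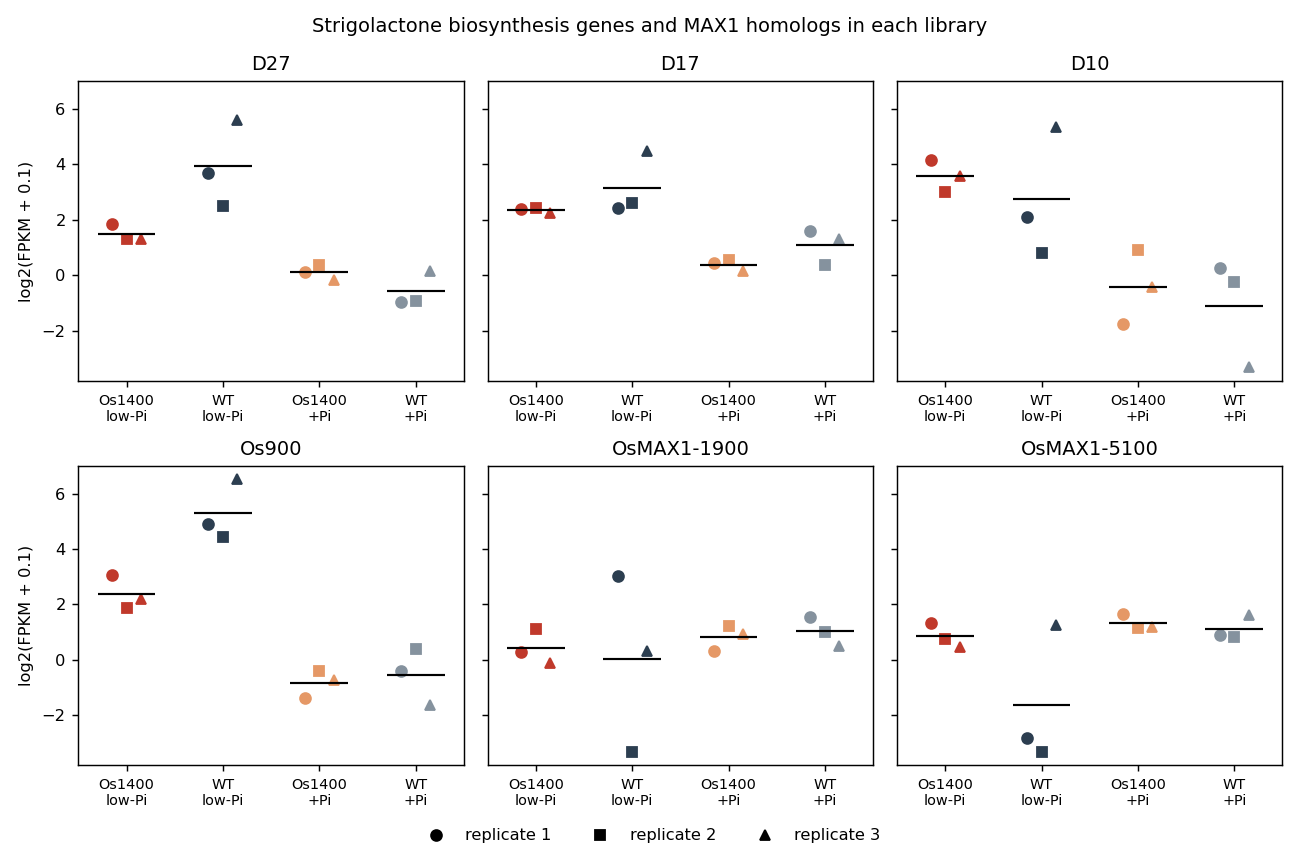
Levels of 6 members in the 12 libraries, as log2(FPKM + 0.1), with 1 panel per gene, groups from left to right Os1400 low-Pi, WT low-Pi, Os1400 +Pi, and WT +Pi, 1 symbol per replicate number, and a line at the group mean of the plotted values. D27, D17, D10, and Os900 sit higher at low-Pi than at +Pi in both genotypes, WT low-Pi replicate 3 is the highest library of all for each of these 4 genes, and OsMAX1-1900 and OsMAX1-5100 show no such separation.

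The remaining homologs behaved otherwise. OsMAX1-1900 (Os02g0221900, minus strand of chromosome 2, 6802706 to 6805314) had 1.10, 2.04, and 0.815 FPKM in Os1400 at low-Pi, against 1.13, 2.24, and 1.80 FPKM in Os1400 at +Pi, and the groups overlapped. Its log2FC was -0.28 (95% confidence interval -1.31 to 0.76, adjusted p = 0.706). OsMAX1-5100 (Os06g0565100, minus strand of chromosome 6, 21755618 to 21758603) had 2.43, 1.58, and 1.27 FPKM in Os1400 at low-Pi, against 3.03, 2.12, and 2.20 FPKM in Os1400 at +Pi, also with overlap. Its log2FC was -0.37 (95% confidence interval -1.22 to 0.48, adjusted p = 0.521). Rises above 0.76 and 0.48 on the log2 scale thus lay outside these intervals. OsMAX1-1500 (Os01g0701500, plus strand of chromosome 1, 29044999 to 29048032), which encodes a truncated enzyme in Nipponbare, had too few counts to be tested. It held 8 counts in Os1400 low-Pi replicate 3, 7 and 21 counts in WT +Pi replicates 1 and 2, and 0 in the other 9 libraries.

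The same comparison within WT gives the response of the intact genotype. D27 and Os900 rose, which makes 2 of the 6 members tested, where 8.46% of all 25163 genes tested were called higher and 23.7% in either direction. D27 had 12.8, 5.55, and 48.4 FPKM in WT at low-Pi, against 0.411, 0.428, and 1.02 FPKM in WT at +Pi, a log2FC of 5.11 (SE 0.96, adjusted p = 0.0151). Os900 had 30.1, 21.6, and 91.7 FPKM in WT at low-Pi, against 0.648, 1.21, and 0.222 FPKM in WT at +Pi, a log2FC of 6.04 (SE 0.90, adjusted p = 0.0102). Without WT low-Pi replicate 3, the highest library for both genes, their log2FCs were 3.81 and 5.14, and both were still called. The D27 call was lost on leaving out any 1 of the WT +Pi libraries (adjusted p from 0.0506 to 0.0627).

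D17 and D10 did not pass the test in WT. D17 had 5.22, 5.99, and 22.2 FPKM in WT at low-Pi, against 2.92, 1.18, and 2.35 FPKM in WT at +Pi (log2FC 2.32, 95% confidence interval 0.51 to 4.13, adjusted p = 0.0751). D10 had 4.24, 1.64, and 41.2 FPKM in WT at low-Pi, against 1.09, 0.745, and 0 FPKM in WT at +Pi (log2FC 4.61, 95% confidence interval 0.01 to 9.21, adjusted p = 0.150). For D17, D10, D27, and Os900 alike, all WT low-Pi values lay above all WT +Pi values, as held for 15.8% of all genes tested. DESeq2 and the fit of all 12 libraries called all 4 genes in WT. Without WT low-Pi replicate 3, the log2FC of D10 was 2.18.

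The 2 other homologs varied widely in WT at low-Pi. OsMAX1-5100 had 0.0421, 0, and 2.30 FPKM in WT at low-Pi, against 1.74, 1.66, and 2.95 FPKM in WT at +Pi, which corresponds to 2, 0, and 86 counts against 120, 117, and 171. OsMAX1-1900 had 8.04, 0, and 1.16 FPKM in WT at low-Pi, against 2.80, 1.93, and 1.32 FPKM in WT at +Pi. Neither gene was called, with log2FCs of -1.50 (adjusted p = 0.696) for OsMAX1-5100 and 0.53 (adjusted p = 0.894) for OsMAX1-1900. When WT low-Pi replicate 3 was left out, OsMAX1-5100 was called lower in WT at low-Pi (adjusted p = 0.0317), at a fitted value that rests on 2 counts in the remaining low-Pi libraries.

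Whether Os1400 and WT responded differently was tested by the interaction of genotype and Pi supply over all 12 libraries. Only D27 passed, with a response that was smaller in Os1400 by 3.52 on the log2 scale (difference -3.52, SE 0.93, 95% confidence interval -5.56 to -1.48, adjusted p = 0.0279). That is 1 of 6 members, where 2.82% of the 28691 genes tested were called lower and 13.4% in either direction. The D27 call failed when any of Os1400 low-Pi replicates 1, 2, and 3, Os1400 +Pi replicates 1 and 2, or WT +Pi replicates 1 and 2 was left out (adjusted p from 0.0552 to 0.0767). It was kept without WT low-Pi replicate 3, where the difference was -2.27. With limma on log2(FPKM + 1) and log2(FPKM + 0.1) the D27 call was lost (adjusted p = 0.0760 and 0.0683).

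For Os900 the difference was -2.45 (95% confidence interval -4.48 to -0.42, adjusted p = 0.111). For D17 it was -0.17 (95% confidence interval -1.89 to 1.55, adjusted p = 0.933), and for D10 it was -0.69 (95% confidence interval -4.75 to 3.37, adjusted p = 0.876). The interval for D17 leaves out a difference as large as that fitted for D27, and the interval for D10 does not. OsMAX1-5100 had a difference of 1.13 (adjusted p = 0.780), which became 6.15 (adjusted p = 0.00329) without WT low-Pi replicate 3, where the fit again rests on 2 counts in WT at low-Pi.

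**Figure D2:**
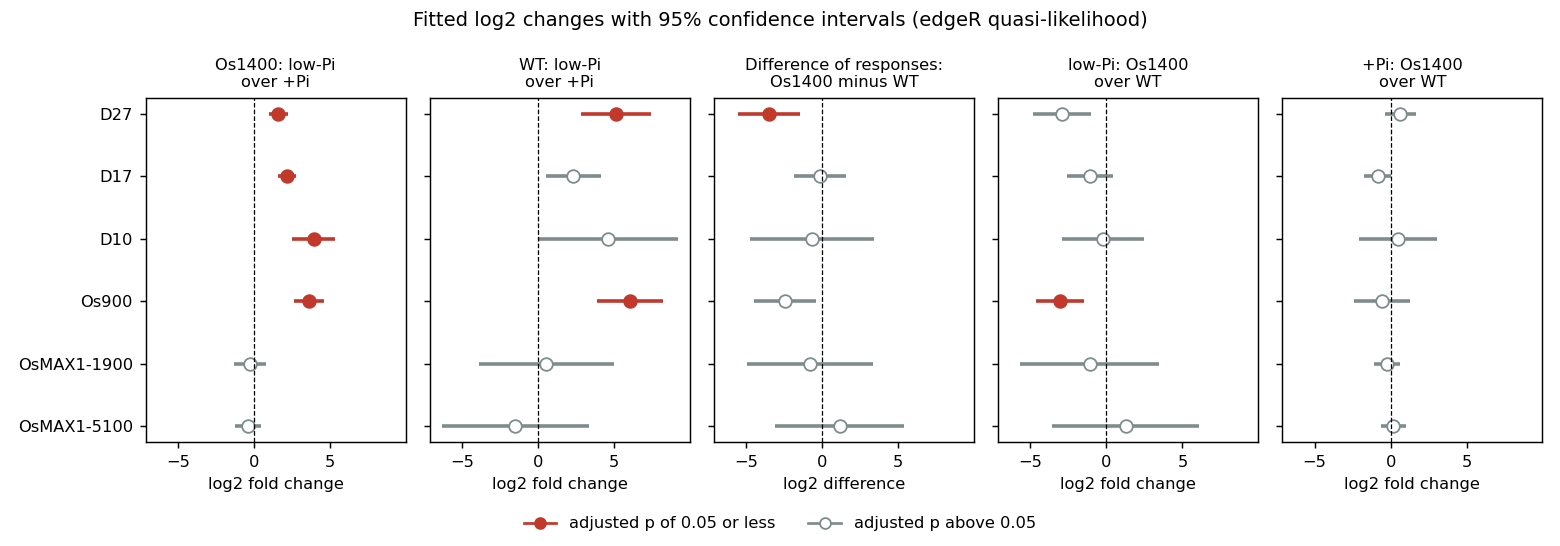
Fitted log2 changes of the 6 tested members in 5 comparisons, with 95% confidence intervals as horizontal lines, filled where the adjusted p is 0.05 or less. The intervals are narrow for the low-Pi response in Os1400, where D27, D17, D10, and Os900 are called, and wider for each member in the 3 comparisons that include WT low-Pi.

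Set against WT at the same Pi supply, Os900 differed at low-Pi and no member differed detectably at +Pi. At low-Pi, Os900 was lower in Os1400 with a log2FC of -3.05 (SE 0.65, 95% confidence interval -4.62 to -1.49, adjusted p = 0.0223), the 1 call among 6 members tested, where 4.47% of 25426 genes were called lower and 16.9% in either direction. D27 had a log2FC of -2.92 (SE 0.79, 95% confidence interval -4.84 to -1.01) and just missed the threshold (adjusted p = 0.0539). D27 and Os900 were the members whose low-Pi values did not overlap between the genotypes, being lower in Os1400, as held for 12.2% of all genes tested. Their Os1400 maxima of 3.52 and 8.27 FPKM compare with WT minima of 5.55 and 21.6 FPKM.

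Both results were close to the threshold. The Os900 call failed when any 1 of the Os1400 low-Pi libraries was left out (adjusted p from 0.0627 to 0.0938), and without WT low-Pi replicate 3 it was kept at a log2FC of -2.17 (adjusted p = 0.0240). Without Os1400 low-Pi replicate 1 or 3, 0 of all genes tested were called, so those 2 losses were not particular to Os900. Without Os1400 low-Pi replicate 2, 2105 genes were still called. D27 was called without WT low-Pi replicate 2 and without replicate 3 (adjusted p = 0.0274 and 0.0495), at log2FCs of -3.35 and -1.64, and by DESeq2. The summed FPKM of 15 genes with an SPX domain, a family of phosphate sensors and regulators that includes known markers of phosphate starvation, was 860, 711, and 779 in Os1400 at low-Pi, against 2510, 1628, and 3128 in WT at low-Pi, and 235 to 321 in the 6 libraries at +Pi. Much of this sum came from Os03g0406100, which had 362, 277, and 331 FPKM in Os1400 at low-Pi, against 1487, 781, and 1955 FPKM in WT at low-Pi, and the family did not move as one. Of the 12 SPX genes tested between the genotypes at low-Pi, 3 were lower in Os1400 (Os03g0406100, Os06g0603600, and Os02g0202200), 2 were higher (Os06g0129400 and Os02g0678200), and 7 were not called, with a median log2FC of -0.23 beside 0.22 over all genes tested. All 5 calls failed, like those of all other genes, when Os1400 low-Pi replicate 1 or 3 was left out. Of these 5, 4 also failed without replicate 2, and that of Os02g0678200 also without WT low-Pi replicate 1 (adjusted p from 0.0544 to 0.145 over all these failures). The part of these differences in the values of D27 and Os900 was not tested.

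D17 and D10 were not called between the genotypes at low-Pi. The log2FC of D17 was -1.06 (95% confidence interval -2.58 to 0.46, adjusted p = 0.368). That of D10 was -0.24 (95% confidence interval -2.92 to 2.44, adjusted p = 0.940), and it was 2.18 (adjusted p = 0.0559) without WT low-Pi replicate 3. All 3 Os1400 low-Pi libraries had more D10 than WT low-Pi replicates 1 and 2, and less than replicate 3. OsMAX1-1900 (log2FC -1.10, adjusted p = 0.809) and OsMAX1-5100 (log2FC 1.26, adjusted p = 0.791) overlapped between the genotypes, and OsMAX1-5100 was called higher in Os1400 at low-Pi (adjusted p = 0.0391) when WT low-Pi replicate 3 was left out.

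At +Pi, 0 of the 6 members tested were called by edgeR, 0 had an unadjusted p under 0.05, and DESeq2 and limma called 0, where 0.958% of 27777 genes were called by edgeR. All 6 overlapped between the genotypes, whereas 16.9% of all genes tested did not. The estimates ran from -0.84 for D17 (95% confidence interval -1.74 to 0.05, adjusted p = 0.527) to 0.65 for D27 (95% confidence interval -0.36 to 1.65, adjusted p = 0.736). The intervals were widest for D10 (-2.08 to 3.07) and Os900 (-2.38 to 1.27), whose counts at +Pi were between 0 and 129.

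Among themselves the members exchanged rank with Pi supply. In both genotypes at +Pi, OsMAX1-5100, OsMAX1-1900, and D17 had the highest mean FPKM of the family. OsMAX1-5100 averaged 2.45 ± 0.51 FPKM in Os1400 and 2.12 ± 0.72 FPKM in WT, and OsMAX1-1900 averaged 1.72 ± 0.56 FPKM in Os1400 and 2.02 ± 0.74 FPKM in WT (SD, n = 3 each). D17 averaged 1.21 ± 0.19 FPKM in Os1400 and 2.15 ± 0.89 FPKM in WT. The values of these 3 genes overlapped in WT, and their order there is not resolved. In Os1400, all values of OsMAX1-5100 lay above all of D17, and OsMAX1-1900 overlapped both. The summed FPKM of the 8 genes was 22.8 to 38.4 in Os1400 low-Pi, 34.8 to 207 in WT low-Pi, 6.90 to 9.35 in Os1400 +Pi, and 7.45 to 9.70 in WT +Pi.

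At low-Pi the leading gene differed by genotype. D10 made up 34.7 to 46.6% of the summed FPKM of the 8 genes in Os1400, against 4.72 to 19.9% in WT. Os900 made up 15.7 to 21.5% in Os1400, against 44.3 to 62.1% in WT. D27 made up 9.17 to 10.4% in Os1400 and 16.0 to 23.4% in WT. OsMAX1-5100 made up 4.95 to 6.92% in Os1400 and 0 to 1.11% in WT. For these 4 genes the ranges of the genotypes were apart, and as shares within a library they do not depend on its scaling. Relative to the same sum, 45.5% of 25482 genes were higher in Os1400 without overlap and 0.385% were lower, so the higher shares of D10 and OsMAX1-5100 were like those of many genes. The FPKM of D10 itself overlapped between the genotypes, and the sum that forms the denominator is made up largely of Os900 and D27 in WT.

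Ratios of FPKM between genes of the pathway, which also cancel the scale of a library, describe the composition at low-Pi by pairs of genes, not all of which separated the genotypes. The D10 to D27 ratio was 5.08, 3.33, and 4.95 in Os1400, against 0.330, 0.296, and 0.850 in WT. The D10 to Os900 ratio was 2.16, 2.21, and 2.64 in Os1400, against 0.141, 0.0761, and 0.449 in WT. By FPKM, D10 was thus above both D27 and Os900 in every Os1400 low-Pi library and below both in every WT low-Pi library. Such orders between genes, like the ranks and shares above, depend on the gene lengths used, which for D27 was 3524 bases. The comparison of 1 ratio between the genotypes does not.

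The D17 to D27 ratio was 1.48 to 2.23 in Os1400 and 0.407 to 1.08 in WT, and the D17 to Os900 ratio was 0.629 to 1.48 in Os1400 and 0.173 to 0.278 in WT, again without overlap. The D10 to D17 ratio overlapped, at 1.49 to 3.44 in Os1400 and 0.274 to 1.86 in WT. A higher ratio to D27 in Os1400 without overlap was shared by 72.2% of 25482 genes and a higher ratio to Os900 by 85.2%, so the separation of D17 and D10 from these denominators was that of most genes. A higher ratio to D17 without overlap was found for 39.3% of them. The Os900 to D27 ratio, in contrast, overlapped, at 2.35, 1.51, and 1.88 in Os1400 against 2.35, 3.89, and 1.89 in WT. With 3 libraries against 3, an exact two-sided permutation test cannot go below p = 0.10, and no test was made on the ratios.

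**Figure D3:**
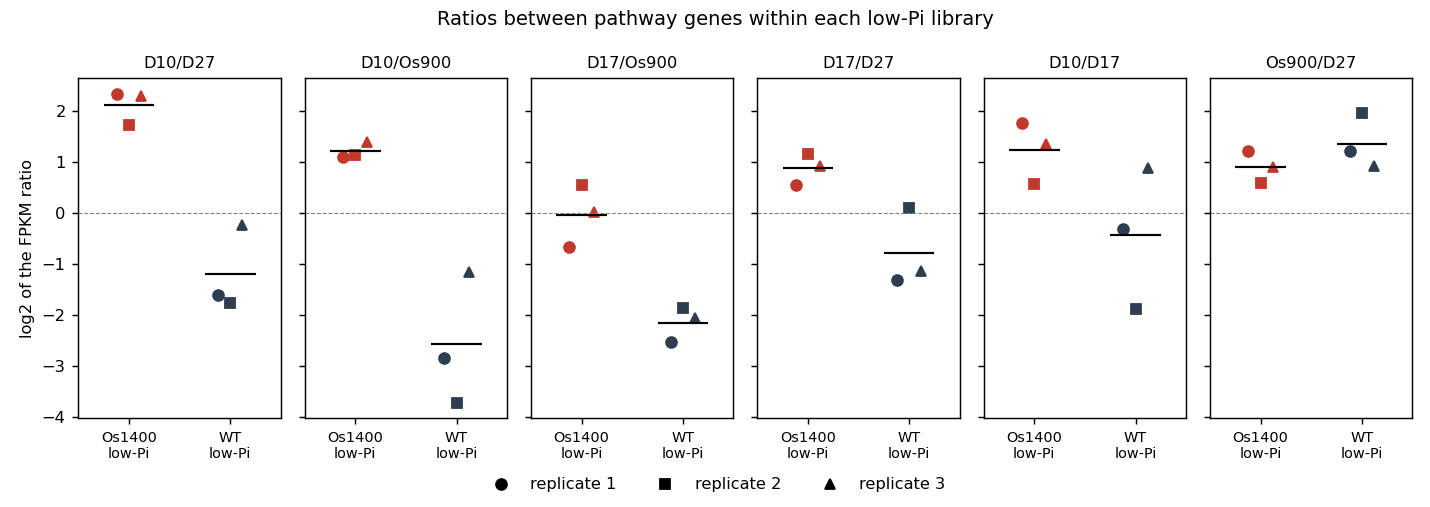
Ratios of FPKM between D27, D17, D10, and Os900 within each low-Pi library, on a log2 axis where 0 means equal FPKM, with Os1400 left of WT, 1 symbol per replicate number, and a line at the mean of the log2 values. The D10/D27, D10/Os900, D17/Os900, and D17/D27 panels separate the genotypes, and the D10/D17 and Os900/D27 panels do not.

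Over the 12 libraries the 4 low-Pi-responsive genes followed each other, as a description across libraries that share their groups. Pearson correlations of log2(FPKM + 0.1) were 0.92 between D27 and Os900, 0.88 between D17 and Os900, 0.87 between D27 and D17, 0.80 between D10 and Os900, 0.76 between D17 and D10, and 0.70 between D27 and D10. Correlations of these genes with OsMAX1-1900 ranged from -0.21 to -0.0014 and those with OsMAX1-5100 from -0.56 to -0.13. Among 21347 genes, the profile most like that of Os900 was glutamine synthetase gene Os02g0735200 (r = 0.98), followed by the dioxygenase-domain gene Os09g0353700 (r = 0.98) and COPPER TRANSPORTER 4 Os04g0415600 (r = 0.98). The gene most like D27 was the short-chain dehydrogenase gene Os03g0269000 (r = 0.98), and the one most like D17 was the RING finger gene Os02g0790600 (r = 0.96). The gene most like D10 was Os05g0407100 (r = 0.93).

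On chromosome 1, Os900, Os01g0701400, and OsMAX1-1500 lie in a cluster. Os900 held more counts than OsMAX1-1500 in all 12 libraries. Os01g0701400, which has no count row, could not be compared with them. The minus-strand model over Os900, Os01g0701100, covers 95.2% of its span but had 5 counts in 1 Os1400 low-Pi library and 0 elsewhere. Os01g0701350, the P450-domain model that covers Os01g0701400, was chosen here after its values were seen. It had 16, 21, and 9 counts in Os1400 at low-Pi, against 0, 176, and 395 counts in WT at low-Pi, and it was at 0 FPKM in all 6 libraries at +Pi.

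The groups overlapped for this model at low-Pi, and the genotype comparison gave a log2FC of -4.04 (SE 2.09, 95% confidence interval -9.09 to 1.0, adjusted p = 0.292). The strand from which its fragments came was not tested. The next gene beyond OsMAX1-1500, Os01g0701700, has a SAM-dependent carboxyl methyltransferase domain and was also chosen after its values were seen. It had 23.7, 23.4, and 12.3 FPKM in Os1400 at low-Pi, against 2.86, 4.26, and 1.67 FPKM in Os1400 at +Pi. In WT it had 25.3, 31.1, and 26.5 FPKM at low-Pi, against 4.19, 4.48, and 3.40 FPKM at +Pi. It rose in both genotypes, by a log2FC of 2.87 in Os1400 (SE 0.37, adjusted p = 0.000377) and 2.74 in WT (SE 0.29, adjusted p = 0.00435), with replicates in WT at low-Pi that were as close together as at +Pi (SDs of log2 FPKM of 0.15 and 0.21).

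**Figure D4:**
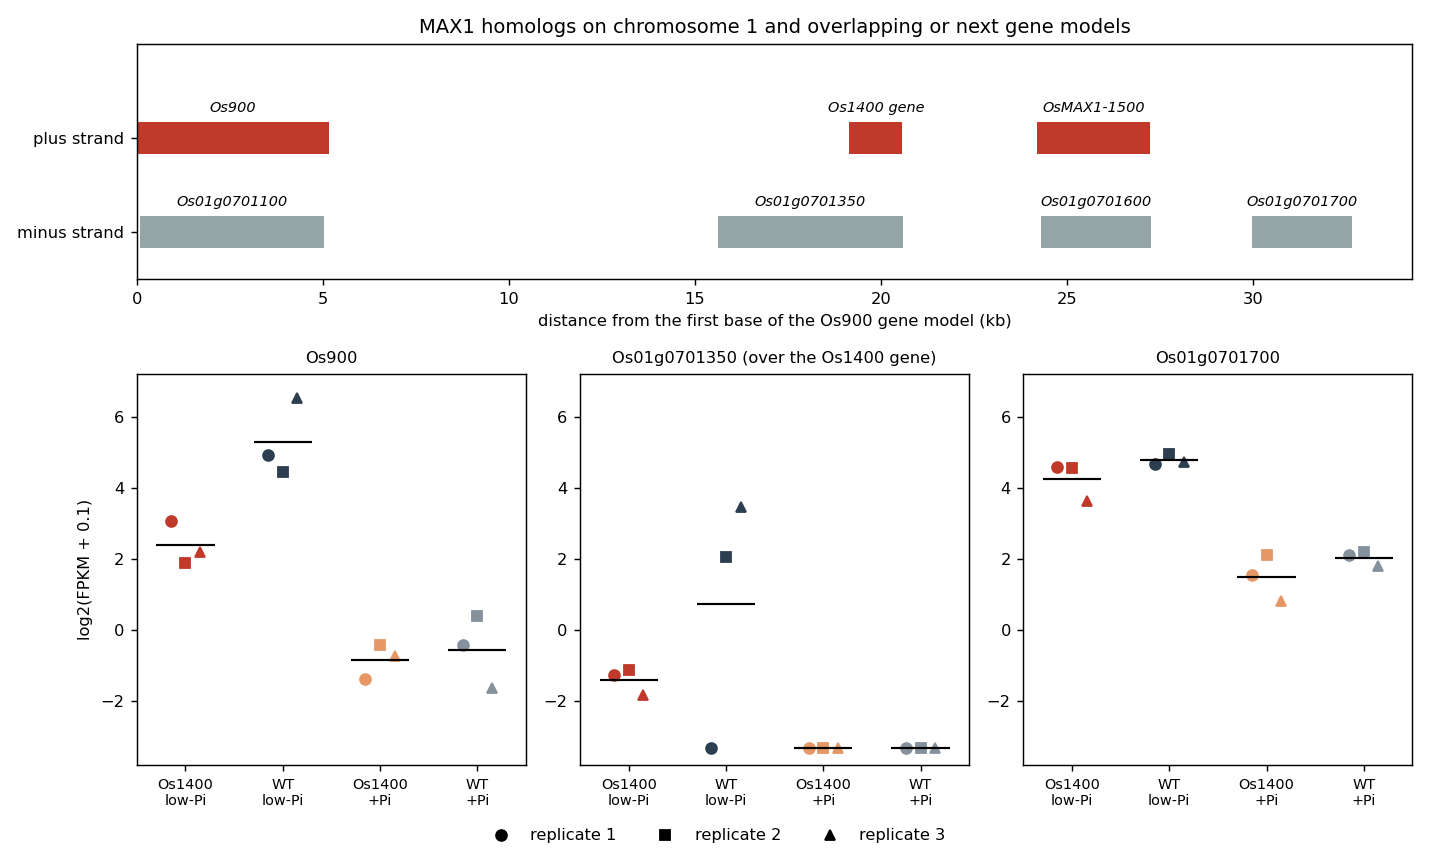
Top, gene models of the MAX1 cluster on chromosome 1 by strand, to scale in kb from the first base of Os900, with MAX1 homologs in red and overlapping or next models in gray. Bottom, log2(FPKM + 0.1) by library of Os900, of Os01g0701350, which is above 0 FPKM in 5 libraries, all at low-Pi, and of Os01g0701700, with a line at the mean of the plotted values.

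The surrounding pathway was followed through gene lists. Over all genes tested, 15.6% were called higher and 14% lower at low-Pi in Os1400, and 8.46% higher and 15.2% lower in WT. The GRAS transcription factors NSP1 and NSP2 are known to be required for D27 expression in rice. NSP1 (Os03g0408600) had 6.42, 3.86, and 8.44 FPKM in Os1400 at low-Pi, against 0.549, 0.801, and 0.185 FPKM in Os1400 at +Pi, and it rose (log2FC 3.70, SE 0.52, adjusted p = 0.000608). In WT it rose by 3.61 (SE 0.98, adjusted p = 0.0418), with 1.91, 4.04, and 9.42 FPKM at low-Pi, against 0.384, 0.315, and 0.511 FPKM at +Pi, a call that failed when any 1 of the WT +Pi libraries was left out (adjusted p from 0.164 to 0.190).

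NSP2 (Os03g0263300) had 5.28, 2.25, and 5.55 FPKM in Os1400 at low-Pi, against 0, 0.784, and 0 FPKM in Os1400 at +Pi, and it was called higher by edgeR (adjusted p = 0.0275). It was not called by DESeq2 (adjusted p = 0.190), in the fit of all 12 libraries (adjusted p = 0.398), or when Os1400 low-Pi replicate 1 or 3 was left out (adjusted p = 0.0922 and 0.0642). In WT it was at 0, 2.20, and 8.88 FPKM at low-Pi, against 0 FPKM in all 3 libraries at +Pi. Of the 6 SL perception and regulatory genes tested in Os1400, 3 rose at low-Pi (NSP1, NSP2, and the transcription factor gene IPA1) and 3 fell (D3, D14, and D53). D14 fell by 2.18 (SE 0.14, adjusted p = 8.18e-06), D3 fell by 1.78 (SE 0.12, adjusted p = 1.09e-05), and D53 fell by 0.43 (SE 0.11, adjusted p = 0.0171) on the log2 scale. The median over these 6 genes was 0.12. In WT 1 of 5 rose (NSP1) and 2 fell (D3 and D53), and between the genotypes 0 of 6 were called at low-Pi and 0 of 5 at +Pi.

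D17 and D10 belong to the carotenoid oxygenase family, of which 14 other genes are in the tables. In Os1400 at low-Pi, 2 of the 7 tested rose and 2 fell, with a median log2FC of -0.31. Os09g0321200 rose by 3.23 (SE 0.46, adjusted p = 0.000656) and Os06g0162550 by 2.56 (SE 0.32, adjusted p = 0.000309). The D10-like gene Os01g0566500 (CCD8a) went the other way from D10 and fell by 2.57 (SE 0.46, adjusted p = 0.00245), with 3.09, 2.98, and 3.64 FPKM in Os1400 at low-Pi, against 36.7, 17.7, and 7.57 FPKM in Os1400 at +Pi. The fourth call was the abscisic acid biosynthesis gene Os12g0617400 (9-CIS-EPOXYCAROTENOID DIOXYGENASE 2), which fell by 2.03 (adjusted p = 0.0384), a call that failed when any library but Os1400 low-Pi replicate 3 was left out (adjusted p from 0.0672 to 0.120). In WT the same gene was at 0 counts in all 3 libraries at low-Pi, against 154, 79, and 61 counts at +Pi, the only call of the family there, and one that failed when any WT +Pi library was left out. In the fit of all 12 libraries, none of these 4 genes was called in Os1400 (adjusted p from 0.0734 to 0.374). Between the genotypes, 0 of 5 were called at low-Pi and 0 of 7 at +Pi. In the test of the difference between the low-Pi responses, 1 of 7 was called, where 13.4% of all genes were. This was again Os12g0617400 (adjusted p = 0.00986), which kept 14, 10, and 26 counts in Os1400 at low-Pi where WT had 0. The call was kept without any single library and was lost with limma on log2(FPKM + 1) and log2(FPKM + 0.1) (adjusted p = 0.423 and 0.0893). The 3 other genes of the D27 family gave 1 gene that could be tested in Os1400, which was not called (log2FC -0.57).

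Of 13 carotenoid pathway genes, some of which encode enzymes that use beta-carotene or its products, 1 rose and 4 fell in Os1400 at low-Pi. The median log2FC was -0.32. As a share of the list, these 5 calls compare with the 29.6% of all genes called in either direction. The fallers were CRTISO (Os11g0572700), the beta-carotene hydroxylase genes Os04g0578400 and Os03g0125100, and ZEP (Os04g0448900). Only CRTISO among them acts before beta-carotene. In the fit of all 12 libraries, only Os03g0125100 of these fallers kept its call (adjusted p = 0.0466). The riser was the phytoene synthase gene Os12g0626400, which encodes the entry step of carotenoid synthesis. It had 3.64, 3.87, and 4.55 FPKM in Os1400 at low-Pi, against 1.71, 0.872, and 0.856 FPKM in Os1400 at +Pi (log2FC 1.91, SE 0.38, adjusted p = 0.00428, and 0.254 in the fit of all 12 libraries). In WT it had 4.51 to 59.1 FPKM at low-Pi, against 0.483 to 3.48 FPKM at +Pi, also without overlap, but it was not called there. Between the genotypes, 1 of 12 was called at low-Pi and 0 of 13 at +Pi. The called gene was Z-ISO (Os12g0405200), which encodes the zeta-carotene isomerase upstream of beta-carotene. It had 21.7, 15.2, and 19.7 FPKM in Os1400 at low-Pi, against 46.6, 42.5, and 57.1 FPKM in WT at low-Pi, a log2FC of -1.30 (SE 0.21, adjusted p = 0.0184). It lost the call when Os1400 low-Pi replicate 1 or 3 was left out, as did all other genes called. Its response to low-Pi was also smaller in Os1400 by 1.08 on the log2 scale (difference -1.08, SE 0.28, adjusted p = 0.0274), the 1 call among 13 such genes in that test. That call failed on leaving out any of Os1400 low-Pi replicates 2 and 3, Os1400 +Pi replicates 1 and 3, and WT +Pi replicates 1 and 2 (adjusted p from 0.0593 to 0.0780).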

How the data were processed

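The authors sequenced paired-end root libraries, mapped them to rice transcripts with HISAT2 2.0.5, counted with featureCounts 1.5.0-p3, and compared genotypes with DESeq2 (tools per the labels). The genome build and annotation release are not given in the sources used here. The deposited raw counts per gene come in 1 table per Pi supply, and the deposited FPKM values are fragments divided by gene length and library fragments. The gene length is the authors' too. The authors' fold changes and p-values, and 28 further columns of per-library values or means, were not used.

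Counts were tested as deposited with edgeR 4.0.16 in R 4.3.3 (TMM, filterByExpr with minimums of 10 and 15 counts, glmQLFit and glmQLFTest, Benjamini-Hochberg, FDR of 0.05 or less), on the 6 libraries compared or all 12 for the interaction. Responses used the genes with rows in both count tables. Of the 8 genes, 6 passed the filter. Alternatives used DESeq2 1.42.0, limma 3.58.1 on log2(FPKM + 1) and log2(FPKM + 0.1) with at least 0.5 FPKM in 3 libraries, other normalizations and filters, a replicate block, and leaving out each library. Intervals and the limit of 3 counts cover counting error and the spread of these libraries only. The libraries carry no molecular identifiers. Chi-square per gene between replicates was 18.6 to 314, so none was a copy. On simulated data, edgeR recovered 95.5% of 200 genes given a log2 change of 2 for the interaction over 28691 genes. The simulation gave all libraries the same dispersion and changed only well-counted genes. It thus left out the wider spread of WT low-Pi, and the recovered share does not carry over to the members. Members, lists, and tests were chosen with earlier results of these data known. The named genes are the 8 members, genes of the lists, and the genes most like each member by Pearson correlation (up to 5, mean of at least 1 FPKM). Sequences were not used here.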

Additional observations from a re-analysis of the deposited data

Results flagged for a closer look

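The low-Pi response of D27 differed between the genotypes, with a difference of -3.52 on the log2 scale (Os1400 minus WT) in the test of the interaction (SE 0.93, edgeR adjusted p = 0.0279). The responses themselves were 1.60 in Os1400 and 5.11 in WT. At low-Pi, D27 was lower in 3 of 3 Os1400 libraries than in any WT library. The call of the difference was lost with limma on log2(FPKM + 1) and log2(FPKM + 0.1) (adjusted p = 0.0760 and 0.0683). It was also lost on leaving out any 1 of 7 single libraries.

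The response of Z-ISO (Os12g0405200) also differed, by -1.08 on the log2 scale (Os1400 minus WT, SE 0.28, edgeR adjusted p = 0.0274). That of Os12g0617400 differed by a fitted 7.38 (edgeR adjusted p = 0.00986), a value that depends on the prior count because WT had 0 counts in all 3 libraries at low-Pi, and that is no bound.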

How the results depend on the processing

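The 4 low-Pi calls in Os1400 were kept under every alternative except the fit of all 12 libraries, which called 2 members. The number of members called between the genotypes at low-Pi (1) was 2 with upper-quartile normalization, with at least 10 counts in every library, with DESeq2, and in the fit of all 12 libraries, 0 without a filter, and 0 to 3 without single libraries. At +Pi it was 0 throughout. In WT (2) it was 4 with DESeq2 and in the fit of all 12 libraries, 3 of the 3 members tested with at least 10 counts in every library, and 1 to 3 without single libraries. For the difference of responses (1) it was 2 with DESeq2, 0 with limma on log2(FPKM + 0.1), and 0 to 2 without single libraries. With limma on log2(FPKM + 1) it was 1, but the member called was Os900, and D27 was lost (adjusted p = 0.0760). Libraries were not treated as paired by replicate number. Correlations of same-numbered deviations ran from -0.13 to 0.48 and were above 0.1 for every number in no comparison. Between the genotypes at low-Pi they were 0.0095, 0.35, and 0.48 for replicates 1, 2, and 3. The highest correlations with another number were 0.12, 0.13, and -0.15, so this rule does not settle pairing at low-Pi. With the replicate block, members called were 0 between the genotypes at low-Pi and 0 at +Pi, 4 in Os1400, 2 in WT, and 1 for the difference. The block turned D10 (1.09) and OsMAX1-1900 (0.18) between the genotypes at low-Pi and OsMAX1-1900 in WT (-1.06). Other results that changed sign had passed no test, and the cause was not tested. Under limma on log2(FPKM + 1) and log2(FPKM + 0.1), D10 was 0.63 and 0.83 between the genotypes at low-Pi and 0.43 and 0.14 for the difference, and OsMAX1-1900 was -0.13 and -1.01 in WT. Under log2(FPKM + 0.1) alone, OsMAX1-1900 was 0.40 between the genotypes at low-Pi and 0.60 for the difference. Without single libraries, D10 ranged from -0.74 to 2.18 between the genotypes at low-Pi, -0.54 to 1.19 at +Pi, and -1.38 to 1.703 for the difference. OsMAX1-1900 ranged from -1.67 to 1.29, from -0.48 to 0.051, and from -1.40 to 1.59 in these 3 comparisons, and from -1.87 to 1.08 in WT. Os900 ranged from -0.98 to 0.12 at +Pi and D17 from -0.52 to 0.78 for the difference. Over all genes, calls between the genotypes at low-Pi (4301) numbered 1274 without a filter, 2553 with at least 10 counts in every library, 6914 with DESeq2, 1045 with the block, 7818 in the fit of all 12 libraries, and 0 to 7168 without single libraries. At +Pi (266) they numbered 469 without a filter, 648 with DESeq2, 33 in the fit of all 12 libraries, and 133 without Os1400 replicate 2. In Os1400 (8191) they numbered 2559 in the fit of all 12 libraries. In WT (5962) they numbered 1943 with the block, 9776 in the fit of all 12 libraries, and 1830 to 9043 without single libraries. For the difference (3838) they numbered 2252 with at least 10 counts in every library and up to 6658 without single libraries. Upper-quartile normalization moved the median of all genes by -0.11 between the genotypes at low-Pi, 0.15 in WT, and -0.18 for the difference, where 2613 genes were then called higher and 1200 lower, beside 3028 and 810. TMM factors from genes with at least 10 counts in all 12 libraries, an alternative chosen after seeing the data, changed no call of a member.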
